A study of Mus musculus with 16 samples.

Results

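The genes described here are 8 transcription regulators of the sympathoadrenal lineage, Phox2a, Hand1, Hand2, Insm1, Isl1, Eya1, Hif3a and Epas1. They were found by matching the Ensembl identifiers of the deposited count table to GENCODE M21 symbols, which gave 1 row for each of the 8, of 54838 genes in the table. The study sequenced RNA of frozen adrenal glands from 16 individual mice. They were 4 weeks old, came from a mixed genetic background, and made up 4 groups of 4: female control, female Rspo1 GOF, male control and male Rspo1 GOF. GOF stands for gain of function, and the product of Rspo1 is a secreted amplifier of WNT signals. The labels used here give no allele, promoter or Cre driver for the GOF genotype and no treatment for any group, and mice are named by group and a number that follows accession order and pairs nothing.

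Chromaffin cells of the adrenal medulla and sympathetic neurons descend from neural crest through a shared sympathoadrenal fate, which is driven by a network of transcription factors. Within that network the homeodomain protein PHOX2A and the basic helix-loop-helix proteins HAND1 and HAND2 control noradrenergic genes, the zinc-finger protein INSM1 and the LIM-homeodomain protein ISL1 act in neuroendocrine and sympathetic differentiation, and EYA1 is a transcriptional coactivator and phosphatase that is brought to DNA by partner proteins. EPAS1, also called HIF-2alpha, is an oxygen-regulated subunit known both from chromaffin cells and from endothelium, and HIF3A is its relative, with forms that restrain HIF activity. The medulla lies inside a steroid-producing cortex, so in whole-gland RNA fewer cells of a type and less RNA per cell cannot be told apart.

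The 250 bases before the start of each gene in RefSeq (for Isl1 1 base inside the GENCODE start) are shown for the 4 factors with an entry in the RefSeq promoter table for GRCm38.p6, to set the core promoters of factors that fell together (Phox2a, Hand2, Isl1) beside one that fell less (Hif3a). Sequences run 5′ to 3′ on the gene's strand, and capitals mark TAAT on either strand (TAAT or ATTA), the core letters of homeodomain sites, and CANNTG, the E-box letters of basic helix-loop-helix sites.
Phox2a (chr7:101818063-101818312, + strand): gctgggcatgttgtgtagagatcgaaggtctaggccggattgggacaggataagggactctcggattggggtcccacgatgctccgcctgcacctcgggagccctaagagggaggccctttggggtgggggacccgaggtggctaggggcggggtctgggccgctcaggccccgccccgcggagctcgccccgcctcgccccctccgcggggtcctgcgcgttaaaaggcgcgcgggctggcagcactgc
Hand2 (chr8:57320733-57320982, + strand): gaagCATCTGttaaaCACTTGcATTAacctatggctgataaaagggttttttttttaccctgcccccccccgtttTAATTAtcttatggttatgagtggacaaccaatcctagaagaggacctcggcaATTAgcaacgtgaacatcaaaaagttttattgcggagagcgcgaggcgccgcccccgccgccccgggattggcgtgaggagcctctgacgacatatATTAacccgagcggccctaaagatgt
Isl1 (chr13:116309689-116309938, - strand): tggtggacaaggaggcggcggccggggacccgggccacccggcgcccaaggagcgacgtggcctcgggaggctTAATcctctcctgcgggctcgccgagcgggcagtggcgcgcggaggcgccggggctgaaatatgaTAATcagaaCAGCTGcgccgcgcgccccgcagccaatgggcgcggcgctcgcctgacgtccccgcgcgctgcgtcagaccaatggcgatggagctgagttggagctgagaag
Hif3a (chr7:17062428-17062677, - strand): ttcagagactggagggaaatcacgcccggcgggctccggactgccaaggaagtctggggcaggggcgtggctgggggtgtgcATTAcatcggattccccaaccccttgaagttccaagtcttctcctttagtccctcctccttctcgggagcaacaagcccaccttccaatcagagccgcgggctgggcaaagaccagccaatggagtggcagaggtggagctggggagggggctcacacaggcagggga
The Phox2a window held neither motif. The Hand2 window held TAAT at 5 positions, 2 of them overlapping in TAATTA, and CANNTG at 2. The Isl1 window held TAAT at 2 positions and CANNTG at 1, and the Hif3a window held TAAT at 1 position and no CANNTG. Of 32851 promoter windows of the same length, 54.9% held TAAT and 66.2% held CANNTG. The letters bound by HIF proteins, ACGTG and GCGTG, were searched on both strands but not capitalised. ACGTG stood once in the Hand2 and Isl1 windows (16.6% of all windows hold it), and GCGTG stood once in the Hand2 window and at 2 positions in the Hif3a window (28.2% of all windows). A match is a run of letters and not a shown binding site.

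Library totals were 31275146 to 43003968 counts, and 18214 genes passed a filter on low counts, all 8 factors among them. Rspo1 itself was higher in every GOF library than in any control of the same sex, with log2 fold changes of 4.94 in females and 4.72 in males. Cortical steroid genes were abundant in every group, with 8 marker genes summing to between 33110 and 53120 CPM (counts scaled to the TMM-adjusted library total). Some libraries carried RNA of other tissue. Male control 2 had a summed level of 10 neuron genes of 1107 CPM, against 115 to 140 in the other male controls, and a Schwann cell sum of 274 CPM against 54.2 to 91.8. Its liver genes summed to 8765 CPM, against 182.5 to 774. Female controls 1 and 3 had 1262 and 215 CPM of kidney tubule genes, against at most 2.89 in the other libraries. The edgeR tests of the factors and the list counts of GOF against control were repeated without these 3 libraries, and without male control 2 alone. They are named below as the 3 libraries carrying other tissue, but the remaining controls were not free of it. Liver sums reached 774 CPM in male control 1 and at most 77.0 in GOF. Adipocyte sums were 2025 to 5074 CPM in controls and 388 to 1009 in GOF.

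**Figure D1:**
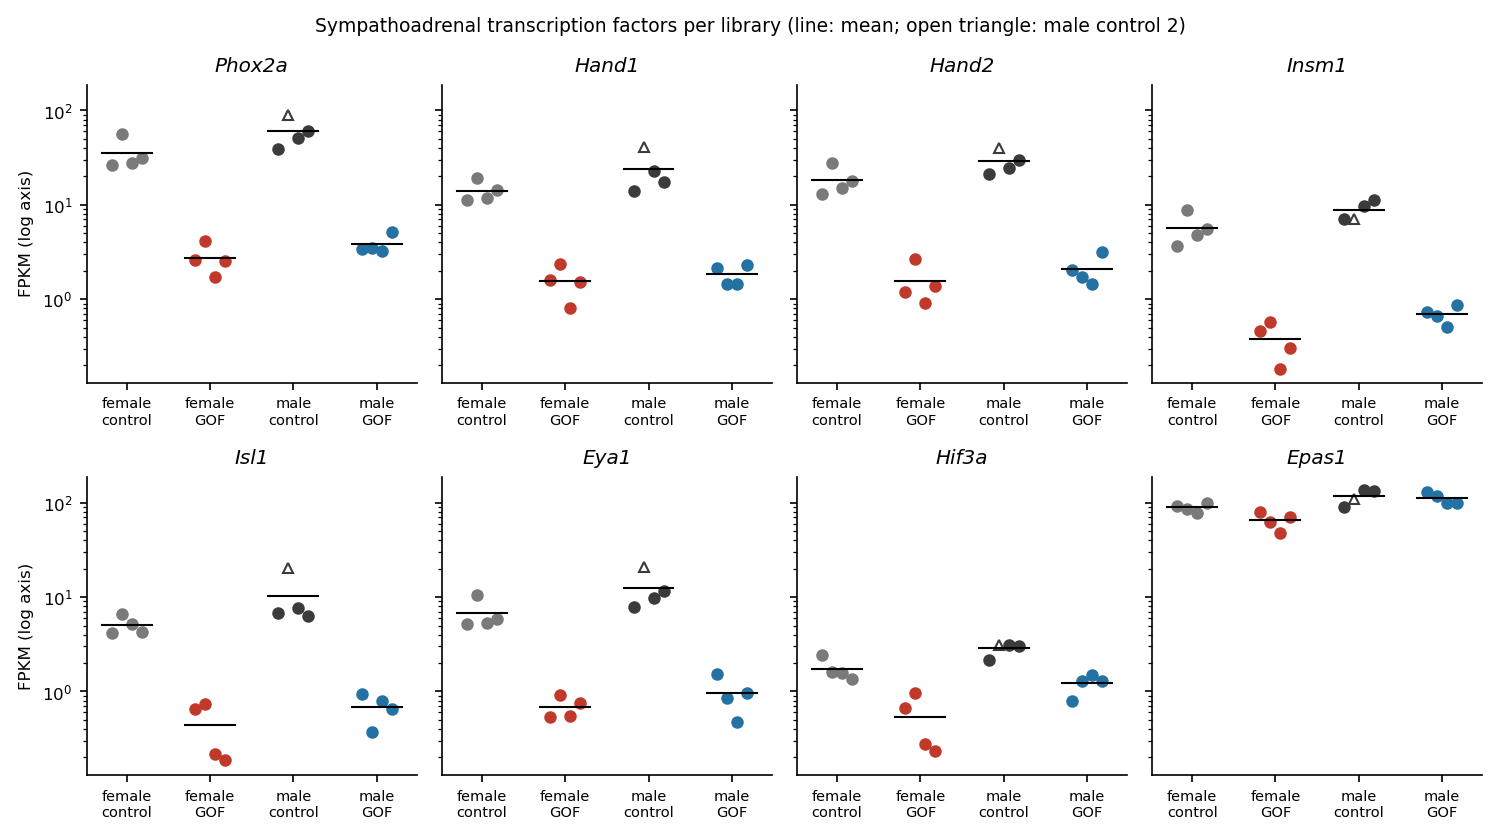
FPKM (fragments scaled to gene length and library total, log axis) of each factor in each of the 16 libraries, by group; lines are group means and the open triangle is male control 2. For the first 6 factors and Hif3a the GOF libraries of each sex lie below all controls of that sex, whereas Epas1 in males ranges from 89.5 to 135 FPKM in controls and from 98.2 to 130 in GOF.

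In GOF adrenals Phox2a, Hand1, Hand2, Insm1, Isl1 and Eya1 stood at 5.86% to 10.6% of the control level in both sexes, Hif3a was lower by less, and Epas1 by the least. All 8 factors fell in GOF females (20.6% of all 18214 tested genes were called lower) and 7 of 8 fell in GOF males (21.8% called lower), the exception being Epas1. Over the 8, log2 fold changes had a median of -3.45 (females) and -3.82 (males), against 0.05 and 0.01 over all tested genes. GOF and control libraries did not overlap for 8 factors in females (20.3% of tested genes lay lower without overlap) and for 7 in males (19.1%). Calls are at a Benjamini-Hochberg adjusted p under 0.05 over all tested genes, from the quasi-likelihood test of edgeR on the counts of all 16 libraries. Without the 3 libraries carrying other tissue 7 factors were called in each sex, and without male control 2 alone 8 and 7.

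Phox2a, a homeodomain factor that binds the dopamine beta-hydroxylase promoter, lies on GRCm38 at chr7:101818313-101822726, + strand. In control females it was measured at 30.0, 66.2, 32.4 and 35.1 CPM, and in GOF females at 2.86, 4.49, 1.94 and 2.83 CPM. Control males gave 45.6, 103, 58.7 and 66.2 CPM, and GOF males 3.63, 3.77, 3.30 and 5.37 CPM. Female control 2 and male control 2 were the highest of their groups, and the GOF libraries of both sexes formed a narrow low band far from any control. The fold change was -3.75 ± 0.34 (log2, SE) in females and -4.09 ± 0.34 in males, with edgeR adjusted p-values of 2.85e-06 and 1.15e-06, so that GOF glands held 7.45% and 5.86% of the control level. Of its 2035 exon bases 95 are shared with Inppl1 on the opposite strand, and Inppl1 differed by only 0.17 and 0.09 on the log2 scale.

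Hand2, needed for noradrenergic differentiation, lies at chr8:57320983-57324633, + strand. Its levels in control females were 31.2, 69.8, 37.0 and 42.0 CPM, against 2.78, 6.25, 2.18 and 3.23 CPM in GOF females. Control males gave 51.6, 97.2, 59.5 and 69.97 CPM, and GOF males 4.61, 3.94, 3.10 and 7.03 CPM. Within females the second mouse of each genotype was the highest, and the lowest control still stood well above the highest GOF library in either sex. The log2 fold change was -3.63 ± 0.37 in females (edgeR adjusted p = 7.53e-06) and -3.90 ± 0.38 in males (3.05e-06). Its exons share 461 of 2351 bases with the antisense transcript Hand2os1, which fell too (log2 fold changes of -3.196 and -3.47). The counting's use of strand is not given in the sources used here, so reads from the shared bases cannot be told apart.

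Hand1, the closest relative of Hand2, lies at chr11:57828705-57832818, - strand. It was measured at 15.8, 27.3, 16.7 and 19.6 CPM in control females and at 2.13, 3.11, 1.11 and 2.06 CPM in GOF females. In control males it stood at 19.7, 58.4, 31.6 and 23.8 CPM, and in GOF males at 2.84, 1.88, 1.78 and 2.93 CPM. Male control 2 was far above the other male controls, and the groups were separate in both sexes. The log2 fold change of Hand1 was -3.23 ± 0.37 in females (edgeR adjusted p = 1.66e-05) and -3.83 ± 0.38 in males (adjusted p = 3.56e-06), or -3.41 in males without male control 2.

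Insm1, a repressor that is expressed across neuroendocrine tissues, lies at chr2:146221921-146225020, + strand, with 3100 exon bases. Its 4 control females held 11.7, 28.7, 15.8 and 17.3 CPM, and its 4 GOF females 1.43, 1.76, 0.567 and 0.943 CPM. Control males held 23.0, 23.0, 31.02 and 34.6 CPM, and GOF males 2.17, 1.97, 1.45 and 2.54 CPM. Here male control 2 was the lowest male control, whereas it was the highest for Phox2a, Hand1, Hand2, Isl1 and Eya1. Groups were separate in both sexes, and Insm1 changed by -3.95 ± 0.35 (log2, edgeR adjusted p = 2.16e-06) in females and by -3.78 ± 0.34 (adjusted p = 1.69e-06) in males.

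Isl1, a LIM-homeodomain factor of sympathetic and motor neurons, lies at chr13:116298281-116309689, - strand. In females it went from 5.85, 9.55, 7.38 and 5.90 CPM in controls to 0.877, 0.984, 0.299 and 0.257 CPM in GOF. In males it went from 9.69, 28.9, 10.8 and 8.53 CPM in controls to 1.25, 0.485, 1.001 and 0.845 CPM in GOF. The lowest GOF libraries rested on 9 and 10 reads, the fewest for any factor. The log2 fold change was -3.55 ± 0.50 in females and -4.01 ± 0.51 in males, with edgeR adjusted p-values of 8.68e-05 and 2.68e-05. Without male control 2, the male control mean went from 14.5 ± 9.65 CPM (SD, n = 4) to 9.68 ± 1.14 (SD, n = 3) and the male log2 fold change to -3.43.

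Eya1, the coactivator among the 8, lies at chr1:14168954-14310235, - strand. Control females stood at 12.2, 25.1, 12.8 and 13.6 CPM, and GOF females at 1.23, 2.04, 1.25 and 1.69 CPM. Control males stood at 18.8, 49.4, 22.9 and 26.1 CPM, and GOF males at 3.36, 1.88, 0.976 and 2.05 CPM. Female control 2 and male control 2 were the highest of their groups, and neither sex showed overlap. The estimates for Eya1 were -3.35 ± 0.40 in females (log2, edgeR adjusted p = 2.18e-05) and -3.82 ± 0.41 in males (adjusted p = 5.98e-06).

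Hif3a, at chr7:17031507-17062427 on the - strand, fell by much less. Control females were measured at 5.93, 4.03, 3.88 and 3.23 CPM and GOF females at 1.58, 2.24, 0.657 and 0.543 CPM. Control males were measured at 5.38, 7.76, 7.48 and 7.07 CPM and GOF males at 1.83, 2.97, 3.202 and 2.90 CPM. The groups were separate in each sex, but the gap between the lowest control and the highest GOF library was narrower than for Phox2a, Hand1, Hand2, Insm1, Isl1 or Eya1. The log2 fold change was -1.76 ± 0.38 in females (edgeR adjusted p = 0.00202) and -1.34 ± 0.37 in males (adjusted p = 0.0104), leaving 29.6% and 39.4% of the control level.

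Epas1, at chr17:86753700-86833410 on the + strand, was the most abundant of the 8. Its levels in control females were 276, 268, 239 and 296 CPM and in GOF females 235, 179, 140 and 205 CPM. In control males they were 274, 334, 405 and 388 CPM and in GOF males 367, 332, 262 and 277 CPM. In females the highest GOF library lay just below the lowest control, while in males the groups overlapped across most of their range. The log2 fold change was -0.51 ± 0.16 in females (edgeR adjusted p = 0.0186) and -0.18 ± 0.16 in males (adjusted p = 0.394, 95% confidence interval -0.51 to 0.16). The female call was lost without the 3 libraries carrying other tissue (-0.58, adjusted p = 0.0547). It was also lost with limma on log2(FPKM + 1) without a filter on low values (-0.47, adjusted p = 0.0659).

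**Figure D2:**
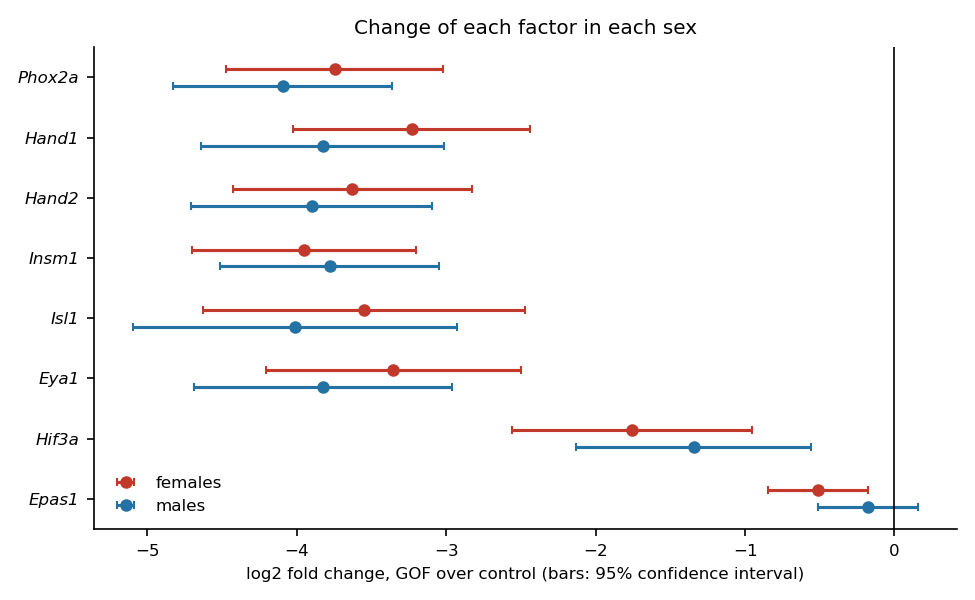
Log2 fold change of GOF over control for each factor in females and males, with 95% confidence intervals from edgeR's quasi-likelihood fit. The first 6 factors lie between -3.23 and -4.09, Hif3a at -1.76 and -1.34, and Epas1 at -0.51 and -0.18, with the male Epas1 interval crossing 0.

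Levels of different genes were compared per gene length, in the deposited FPKM, so their order rests on the lengths used there. The lengths implied by counts and FPKM matched the GENCODE exon bases for Insm1 and Hand2. For the other factors they were shorter than the exon bases, and on exon bases the order below Epas1 would differ in part. Epas1 was the highest of the 8 in every group, at 89.3 ± 9.40 FPKM in female controls, 65.3 ± 14.1 in female GOF, 117 ± 21.9 in male controls and 111 ± 14.9 in male GOF (SD, n = 4 each). Phox2a came next in every group, at 35.4 ± 14.04, 2.75 ± 0.986, 60.0 ± 21.1 and 3.82 ± 0.875 FPKM in the same order, and no Epas1 library overlapped it. In controls Hand2 and Hand1 followed, then Eya1, Insm1 and Isl1 (Insm1 below Isl1 in males). Neighbours in this order had overlapping ranges, except Hand1 and Eya1 in females. Hif3a was the lowest in controls, at 1.75 ± 0.487 FPKM in females and 2.86 ± 0.456 in males, and separate from the factor above it. In GOF glands Insm1 had the lowest mean, at 0.383 ± 0.174 FPKM in females and 0.691 ± 0.147 in males, but its range overlapped that of Isl1, which overlapped Hif3a in females and Eya1 in males.

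To ask whether a factor fell more or less than the chromaffin transcripts of the same gland, its log2 CPM was set against the mean log2 CPM of 15 chromaffin genes (among them Th, Ddc, Dbh and Pnmt, the enzymes of catecholamine synthesis, and the granule proteins Chga and Chgb). That mean changed by -3.43 in females and by -3.88 in males. All 15 genes were called lower in both sexes (20.6% of all tested genes were in females and 21.8% in males). Some varied widely in control males, with Slc6a2 at 179 ± 248 CPM and Syt1 at 106 ± 120 (SD, n = 4). Without male control 2, which had the highest neuron sum, the median log2 fold change of the 15 in males went from -4.05 to -3.69. Relative to the mean of the 15, Phox2a, Hand1, Hand2, Insm1, Isl1 and Eya1 shifted by between -0.51 and 0.18 log2 units, where the groups of 4 varied with SDs of 0.11 to 0.73. The Insm1 shift in males went from 0.14 to -0.22 without male control 2. Against Th, Ddc, Dbh and Pnmt alone all 12 of these shifts were positive, from 0.029 (Insm1 in females) to 0.71 (Hand1 in females), and 0 of 16 passed the exact permutation test after adjustment. Hif3a was higher by 1.52 in females and 2.54 in males, and Epas1 by 2.90 in females and 3.71 in males. On this scale an unchanged gene would be higher by as much as the mean of the 15 fell.

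For Epas1 the relative level in control females was 1.17, 0.30, 1.09 and 1.14 log2 units above the chromaffin mean, and in GOF females 4.29, 2.88, 4.25 and 3.88. In control males it was 0.52, -0.46, 0.72 and 0.81, and in GOF males 4.21, 4.50, 4.23 and 3.47. Every GOF library thus stood above every control of either sex. However, the chromaffin mean itself changed by -3.43 in females and -3.88 in males, so an unchanged gene would rise on this scale too. The share of all genes that separated in this way was not computed. The limma fit described below called 94.4% of all genes in females and 95.2% in males as shifted. A 2-sided exact permutation test of 4 against 4 libraries gave p = 0.0286, the smallest it can give, for Epas1 in each sex and for Hif3a in males, and p = 0.0571 for Hif3a in females. After adjustment over the 16 tests the lowest p was 0.152, which the design cannot take below 0.05 unless most tests reach the minimum, and 0 of 16 passed. On log2(FPKM + 1), a scale that compresses low levels, 12 of 16 passed. For the other factors the exact permutation p ran from 0.0571 (Insm1 in females, shift -0.51) to 0.914 (Insm1 in males).

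The same relative levels were then tested with limma across all 18214 genes, an alternative added after these values had been seen. It called 94.4% of all genes in females and 95.2% in males as shifted relative to the chromaffin mean, among them Hif3a (adjusted p = 0.00155 and 1.17e-07) and Epas1 (1.31e-11 and 4.79e-18) in both sexes. None of the other 6 factors was called in either sex, with limma adjusted p-values from 0.271 to 0.962 and 95% confidence intervals of the shift reaching from -1.40 at the lowest to 1.06 at the highest. The limma standard errors, moderated over all genes, were 0.42 to 0.48, wider than the spread of a factor such as Phox2a, whose relative level in females had SDs of 0.14 in controls and 0.24 in GOF (n = 4 each). A missing call therefore does not show that these factors changed by as much as the chromaffin genes. Without male control 2 the same 4 values were called, at 1.52 and 2.33 for Hif3a and 2.90 and 3.42 for Epas1.

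**Figure D3:**
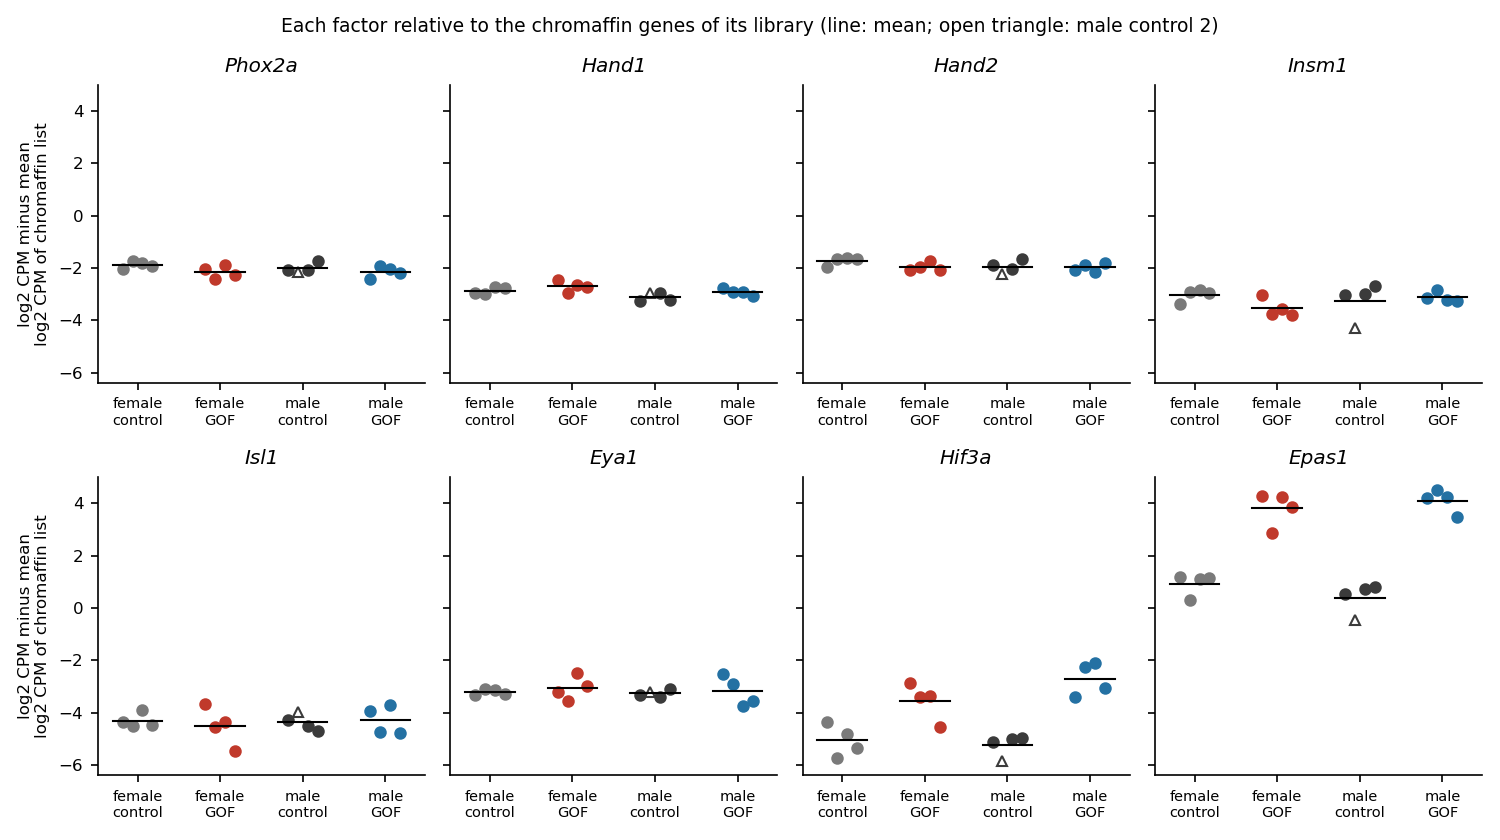
Log2 CPM of each factor minus the mean log2 CPM of 15 chromaffin genes in the same library, by group, with lines at group means and male control 2 as the open triangle. Between genotypes within a sex the first 6 factors shift by between -0.51 and 0.18 (0.029 to 0.71 against the 4 catecholamine enzymes alone), while Hif3a stands higher in GOF by 1.52 and 2.54 and Epas1 by 2.90 and 3.71. The chromaffin mean itself fell in GOF, so an unchanged gene would stand higher too.

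Across the 16 libraries the correlation with the chromaffin mean (Pearson's r, given as a description, since genotype separates the libraries into clusters) was 0.995 for Phox2a, 0.996 for Hand1, 0.995 for Hand2, 0.978 for Insm1, 0.975 for Isl1 and 0.985 for Eya1. It was 0.836 for Hif3a and 0.562 for Epas1. After each group's mean was removed, r was 0.935 for Phox2a, 0.957 for Hand1, 0.937 for Hand2, 0.766 for Eya1, 0.683 for Isl1 and 0.649 for Insm1, but 0.392 for Hif3a and 0.234 for Epas1. All these values rest on the same libraries, among them female control 2 and male control 2, which had the highest chromaffin sums of their groups (13080 and 14980 CPM). Over the 15 libraries without male control 2, r was 0.991 for Insm1, 0.970 for Isl1 and 0.982 for Eya1. The values with group means removed were not repeated without that library. In whole-gland RNA of males the name of the lineage did not hold for Epas1, whose groups overlapped while all 15 chromaffin genes fell. Its level within chromaffin cells was not measured. Hif3a fell with the chromaffin genes, but by less.

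The genes whose profile over the 16 libraries was most like each factor were taken from 13427 named genes with at least 1 CPM on average. Phox2a was most like Ptprn (r = 0.998), a dense-core granule protein, Iqsec3 (0.998) and Hand2 (0.997). Hand2 was most like Faim2, Ptprn and Phox2a (each 0.997), and Hand1 like Iqsec3 (0.996), Oprl1 (0.995) and Disp2 (0.995). Thus 2 of the 8 factors, Phox2a and Hand2, stood among each other's 3 nearest genes. Insm1 was most like Prrt4 (0.993), Slc24a2 (0.992) and Olfm3 (0.992), Isl1 like Frmpd1 (0.989), Ctnnd2 (0.988) and Cdk5r2 (0.986), and Eya1 like Mapk8ip2 (0.993), Oprl1 (0.992) and Sgsm1 (0.992). Hif3a had other neighbours, Fgf2 (0.960), Chst15 (0.953) and Tmprss5 (0.952), and so had Epas1, with Tcim (0.939), Rab30 (0.920) and Maml2 (0.903). The log2 fold changes of the neighbours of Epas1 ran from -1.05 to -0.29 in females and from -0.43 to -0.16 in males, and those of the neighbours of Hif3a from -2.59 to -0.85 and from -2.30 to -0.81. Neighbours were picked by likeness over these same libraries, so fold changes near those of the factor follow from the choice.

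Of 12 other factors of the lineage 8 fell and 1 rose in each sex (20.6% and 21.8% of all tested genes were called lower), and their median was -2.56 (females) and -2.71 (males). The lowest log2 fold changes were those of Insm2, a paralogue of Insm1 (-4.05 in females and -4.30 in males), and Tfap2b, an AP-2 factor of the neural crest (-3.98 and -4.00). Ebf1 fell by the least of the 8, with -0.95 and -0.64. Rest, a repressor of neuronal genes that many other cells express, rose by 0.37 and 0.32. Sox4 (0.39 and 0.43), Sox11 (0.51 and 0.52) and Mycn (0.09 and -0.11), which are not specific to the medulla, were not called. The number called, 9 in each sex, was the same without the 3 libraries carrying other tissue.

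Of 9 dimer partners and cofactors of the factors, 4 were called in females, all higher, and 4 in males, 3 of them higher, a share near that of all tested genes (39.6% called in females and 36.9% in males). Their medians were 0.16 and 0.09, against 0.05 and 0.01 over all tested genes. Ldb2, an adaptor that binds LIM-homeodomain proteins such as ISL1, rose by 1.16 in females and 0.66 in males, and Tcf3, an E protein that pairs with HAND proteins, by 0.40 and 0.37. Of 7 tested relatives and partners of Eya1 (Six2 was too low), 2 fell and 2 rose in females, and 3 fell and 1 rose in males. Eya2, a paralogue of Eya1, changed by -1.36 and -1.43, and Six5 by 0.72 and 0.44 (females and males, log2).

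For the HIF proteins, the list of partners and regulators showed 3 of 8 genes called in each sex, 2 higher and 1 lower, again a share near that of all tested genes (39.6% and 36.9%). Arnt2, a dimer partner expressed in neural tissue, changed by -2.10 in females and by -3.72 in males, a larger fall in males (edgeR interaction -1.61, adjusted p = 0.00847) that was not called without the 3 libraries carrying other tissue (-1.35, adjusted p = 0.0833). Vhl, which marks HIF proteins for degradation, rose by 0.43 and 0.27. The oxygen-regulated subunit Hif1a was not called (-0.14 and 0.06). Of 13 hypoxia targets 7 fell and 1 rose in each sex (20.6% and 21.8% of all tested genes were called lower): Adm (adrenomedullin), which medullary cells also express, changed by -2.71 and -3.04, Ndufa4l2, also a pericyte gene, by -1.63 and -2.24, and Car9 by 0.93 and 1.14 from a low control level (0.859 CPM in females and 0.931 in males). In females the number called was 4 without the 3 libraries carrying other tissue.

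**Figure D4:**
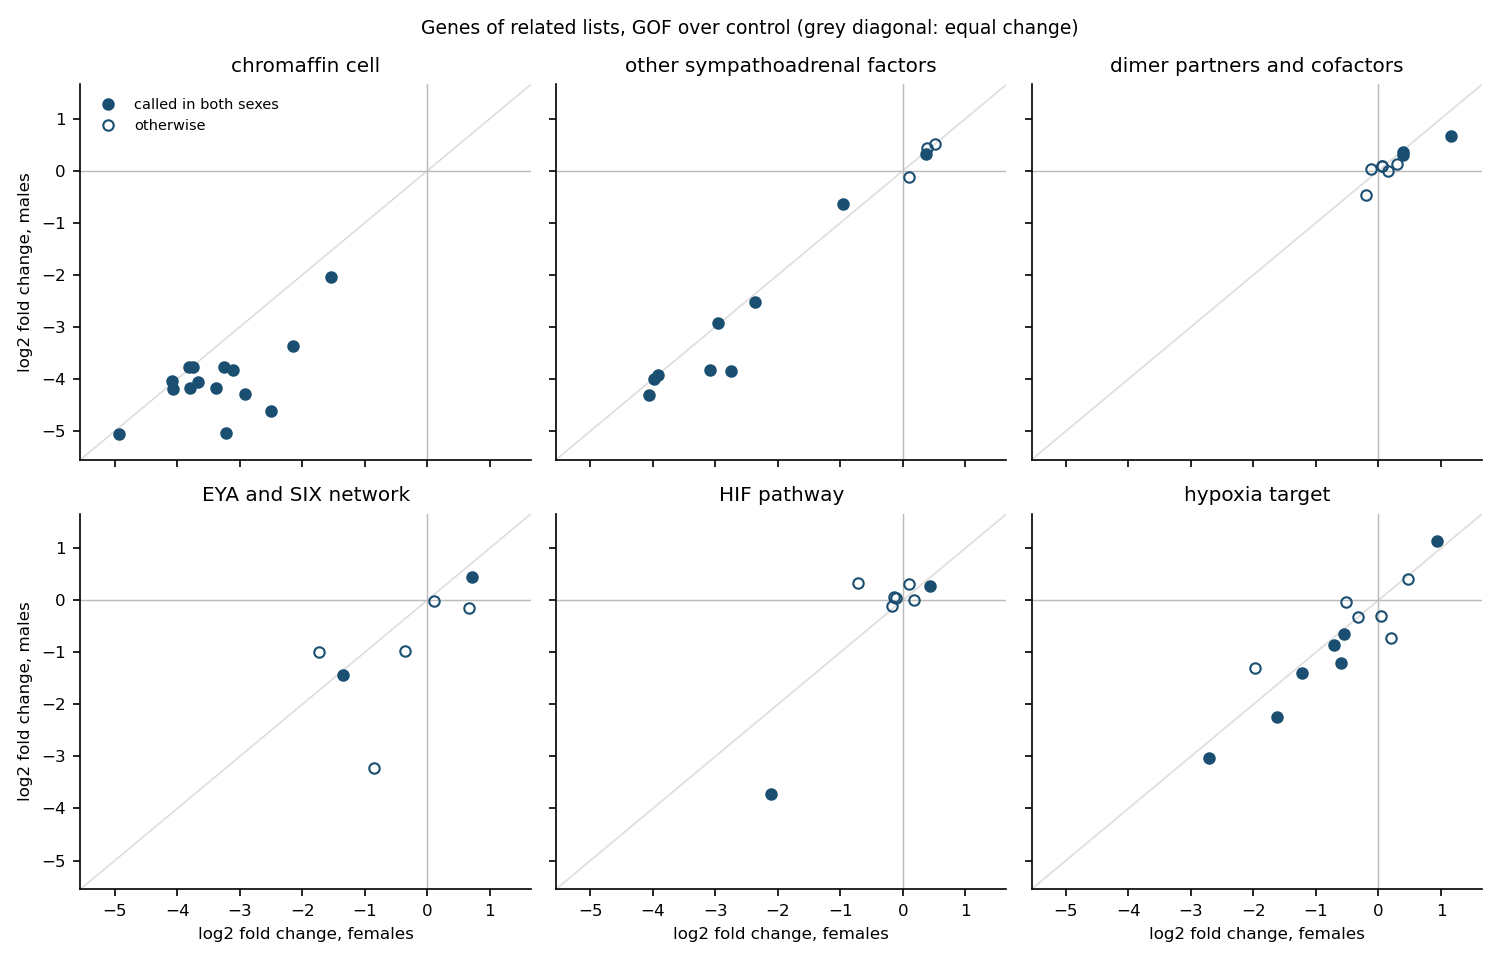
Log2 fold change of GOF over control in females (x axis) and males (y axis) for the genes of 6 lists; filled points were called in both sexes and the grey diagonal is equal change. Chromaffin genes and most other sympathoadrenal factors lie far below 0 on both axes, with medians of -3.39 and -4.05 and of -2.56 and -2.71, while the dimer partners have medians of 0.16 and 0.09.

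Marker genes of other cell types moved beside these results. All 9 Schwann and sustentacular genes were called lower in both sexes (20.6% of all tested genes were in females and 21.8% in males), their summed level going from between 31.9 and 97.0 CPM in control females to between 8.72 and 12.9 in GOF females, and from between 54.2 and 274 to between 10.4 and 13.0 in males. Of 8 tested neuron genes 5 were called lower in females (8 without male control 2) and 8 in males, with sums of 63.7 to 131 CPM against 5.64 to 14.8 in females and 115 to 1107 against 9.88 to 14.2 in males. Of the cholinergic markers Chat was at 3 counts or fewer in each library, and Slc18a3 in each GOF library. All 6 capsule genes, among them Rspo3 (-3.34 and -3.33), fell in both sexes, with sums of 375 to 480 CPM against 120 to 173 in females and 671 to 862 against 191 to 228 in males. Of 8 adipocyte genes, 7 fell in females and 8 in males (medians -2.26 and -4.06), with sums of 2025 to 2537 CPM against 482 to 1009 in females and 2458 to 5074 against 388 to 493 in males. The summed level of liver genes did not overlap between genotypes, at 113 to 165 CPM against 14.6 to 42.7 in females and 182.5 to 8765 against 7.76 to 77.0 in males. Of 8 liver genes 1 was called lower in females and 8 in males (2 and 2 called without male control 2). The part of these cell types in the fall of the factors was not tested. With male control 2 left out, the log2 fold changes in males were -3.83 for Phox2a, -3.41 for Hand1, -3.70 for Hand2, -3.86 for Insm1, -3.43 for Isl1 and -3.45 for Eya1, each still called.

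**Figure D5:**
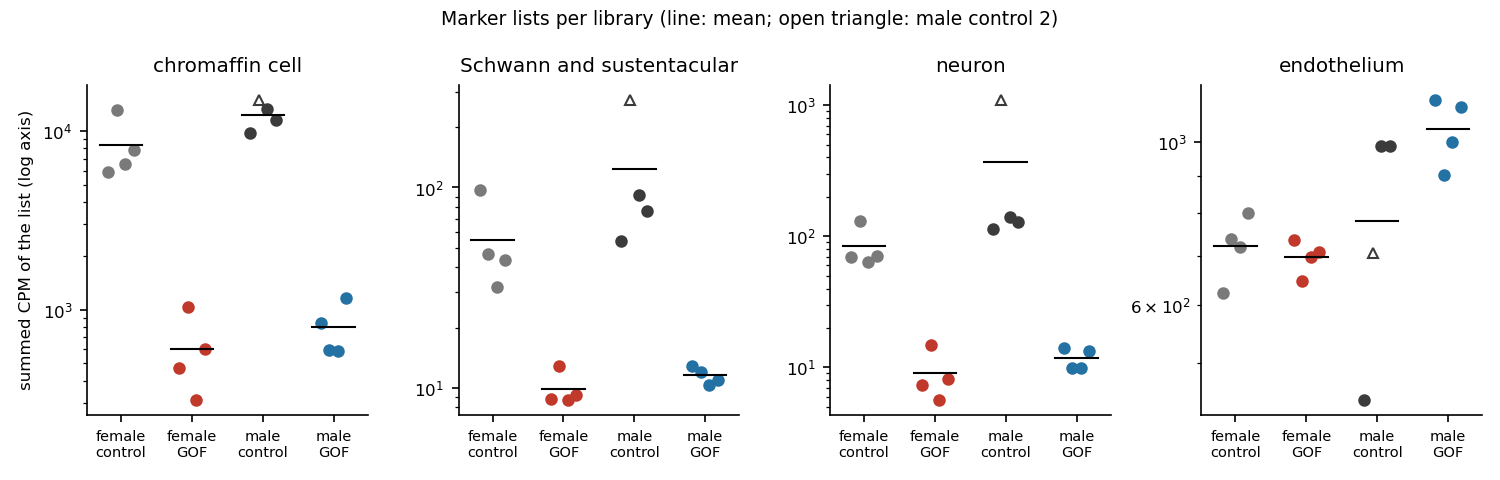
Summed CPM (log axis) of the chromaffin, Schwann and sustentacular, neuron and endothelium marker lists in each library, by group, with lines at group means and male control 2 as the open triangle. The first 3 lists are lower in every GOF library than in any control of the same sex, whereas the endothelium sum is 645.5 to 736 CPM in female GOF and 901 to 1143 in male GOF.

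Epas1 is also an endothelial gene, so the 8 endothelium markers are given beside it. None was called in GOF females by edgeR (median -0.21), and 2 were higher in GOF males (median 0.24), or 1 without male control 2. Over all tested genes 39.6% were called in females and 36.9% in males. Their sum was 623 to 800 CPM in control females, 645.5 to 736 in GOF females, 445 to 989 in control males and 901 to 1143 in GOF males. All 8 averaged at least 1 CPM in every group. Of 6 pericyte markers, Rgs5 was called lower in both sexes, with -1.15 in females and -0.98 in males, but no pericyte marker was called by edgeR in females without the 3 libraries carrying other tissue. The part of endothelium in the level of Epas1 was not tested.

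Between the sexes, all 8 factors had positive point estimates of male over female in controls, with a median log2 difference of 0.72 against 0.08 over all genes. The median of the 8 was 0.45 without male control 2 and 0.27 without the 3 libraries carrying other tissue, where the lowest was Hand1 at 0.092. However, 0 of the 8 were called by edgeR (23.4% of all genes were) or by DESeq2, 5 had an unadjusted p under 0.05, and no factor's groups were separate (25.2% of all genes' were). The largest estimates were those of Isl1 (1.01 ± 0.45, adjusted p = 0.112) and Eya1 (0.88 ± 0.36, adjusted p = 0.0893). With limma on log2(FPKM + 1), filtered at a mean of 0.5 FPKM, 3 of the 8 were called (26.2% of all genes were). These were Eya1 (0.77, limma adjusted p = 0.0399), Insm1 (0.58, adjusted p = 0.0428) and Hif3a (0.50, adjusted p = 0.0440). The edgeR estimates and calls also changed with single libraries. Without male control 2 those of Isl1 and Eya1 were 0.43 and 0.50. Without female control 2 edgeR called Phox2a (1.08, adjusted p = 0.0183) and Eya1 (1.19, adjusted p = 0.0415), and without male control 1 it called Phox2a (0.90, adjusted p = 0.0451) and Epas1 (0.47, adjusted p = 0.0374). Of the 15 chromaffin genes 7 were higher in control males than in control females, and 1 was higher in GOF males. Without male control 2 the first count was 2, and without the 3 libraries carrying other tissue it was 1.

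In GOF adrenals 2 of the 8 factors were called higher in males (29.6% of all genes were called and 13.3% called higher). Epas1 was separate between the sexes, at 190 ± 40.0 CPM in females and 309 ± 48.6 in males (SD, n = 4 each), a log2 difference of 0.71 ± 0.16 (edgeR adjusted p = 0.00368). Non-overlap upwards held for 13.4% of all genes. In the same contrast 6 of the 8 endothelium markers were higher in GOF males, with a median of 0.62 (3 of the 8 without the 3 libraries carrying other tissue). Between genotypes in males the signs differed, with an endothelium median of 0.24 and Epas1 at -0.18 (not called). The part of endothelium was not tested. Hif3a stood at 1.26 ± 0.805 CPM in females and 2.72 ± 0.612 in males, a difference of 1.11 ± 0.37 (adjusted p = 0.0360), with overlapping groups. Neither was called when the title-number range (4 ranges of the numbers in the titles, of unstated meaning) entered the fit (Epas1 0.62, adjusted p = 0.115, and Hif3a 0.45, adjusted p = 0.647), with which 7.34% of all genes were called. The Hif3a call was also lost when female GOF 3 or 4, or male GOF 2, 3 or 4, was left out (adjusted p = 0.0648 to 0.102), and Insm1 was called without female GOF 2 (1.05, adjusted p = 0.0370). With no GOF library left out, Hif3a was not called when edgeR fitted only the groups compared (1.10, adjusted p = 0.0932). Nor was it called with limma on log2(FPKM + 1) unfiltered (0.55, adjusted p = 0.0505).

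The change with genotype was not shown to differ between the sexes for any factor. In the interaction test 0 of 8 were called by edgeR (4.21% of all genes were) or by DESeq2, and 0 had an unadjusted p under 0.05. The estimates, positive where males fell less, ran from -0.59 for Hand1 (95% confidence interval -1.64 to 0.45) to 0.41 for Hif3a (-0.69 to 1.51), with Epas1 at 0.33 (-0.14 to 0.81). Within the title-number ranges that held both genotypes of a sex, of 1 to 3 libraries a side, the first 7 factors were lower in GOF in each, from -1.21 (Hif3a) to -4.25 (Isl1) as log2 ratios of mean CPM, and Epas1 ran from -0.75 to 0.05.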

How the data were processed

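Adrenal RNA of 16 mice was measured. Per the labels' protocols, total RNA was purified on columns, kept above an integrity cut-off, prepared with a NEBNext Ultra kit and read in pairs. Bowtie2 2.2.3, TopHat2 2.0.12, HTSeq 0.6.1 and DESeq 1.18.0 are named, without roles, in the submitters' processing notes; genome build and strand setting are not given in the sources used here. The authors deposited raw counts per Ensembl gene and FPKM, fragments scaled to gene length and library total. Of 54838 identifiers 54809 were in GENCODE M21 (GRCm38), used for symbols and positions.

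Counts were scaled by TMM and fitted with edgeR 4.0.16 (filterByExpr, robust quasi-likelihood, 1 mean per group, all 16 libraries, 18214 genes), with Benjamini-Hochberg adjustment over all tested genes at 0.05. Log2 CPM used a prior count of 2. Alternatives were DESeq2 1.42.0, other scalings and filters, limma 3.58.1 on log2(FPKM + 1) or (FPKM + 0.1), the title-number range as covariate, and libraries left out. Each library is 1 mouse. Named genes are the factors, Rspo1, up to 2 genes called higher and 2 called lower in both sexes per list, markers of other cell types, and the 3 nearest genes by Pearson's r per factor; Hand2os1, Inppl1, Ebf1, Sox4, Sox11, Mycn and Hif1a were added after their values were seen. Members and lists were chosen with earlier results of these data known. Some genes first listed are not reported here and were left out of their lists' counts.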

Additional observations from a re-analysis of the deposited data

Results flagged for a closer look

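In 3 of 32 sets of 4 libraries (8 factors in 4 groups) 1 library stood apart from the other 3 by a gap beyond Dixon's 95% limit for the share of the whole range. Chance gives this in about 1 of 20 sets. Phox2a in female control 2 was 66.18 CPM, with a gap of 0.86 of the range, and Eya1 in the same library was 25.14 CPM, with a gap of 0.892. That library also had the highest chromaffin sum of the female controls, 13080 CPM against 5851 to 7777. Isl1 in male control 2 was 28.88 CPM, with a gap of 0.888, in the library with the highest neuron, Schwann and liver sums.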

How the results depend on the processing

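All 8 factors in females and 7 in males kept their direction and, but for Epas1 in females, their call in all 27 alternatives. Factors called between control males and females numbered 3 with limma on log2(FPKM + 1) filtered at a mean of 0.5 FPKM, and 0 to 2 with 1 library left out. Between GOF males and females they numbered 1 when only the groups compared were fitted, 1 with limma on log2(FPKM + 1) unfiltered, 0 with the title-number covariate (7.34% of all genes called, against 29.6%), and 1 to 3 with 1 library left out. Of 16 shifts relative to chromaffin genes, 12 passed on log2(FPKM + 1), a scale that compresses low levels, and 4 with limma over all genes. Hand1 in GOF males against females was -0.044 to 0.42 with 1 library left out, negative without female GOF 3. Interactions turned sign for Insm1 (-0.29 with limma on log2(FPKM + 1) with and without the filter, -0.016 with the covariate, -0.13 to 0.46 with 1 library left out), Hand2 (-0.56 to 0.16 with 1 left out, positive without female GOF 2) and Isl1 (-0.69 to 0.12, positive without male control 2). Without the 3 libraries with other tissue they were 0.18 for Eya1, 0.22 for Isl1, 0.23 for Phox2a, 0.060 for Hand1 and 0.24 for Hand2. Against Th, Ddc, Dbh and Pnmt alone, shifts relative to chromaffin genes turned to 0.25 and 0.13 for Phox2a (females and males), 0.30 and 0.26 for Hand2, and 0.029 for Insm1 and 0.34 for Isl1 in females, and those of Hand1 and Eya1 in females grew to 0.71 and 0.69. On log2(FPKM + 1) they turned to 0.12 and 0.25 for Hand2, and 0.81 for Insm1 and 0.97 for Isl1 in females. With 1 library left out they ranged from -0.041 to 0.31 for Eya1 and -0.48 to 0.12 for Isl1 in females, and in males from -0.11 to 0.077 for Hand2, -0.22 to 0.33 for Insm1, -0.12 to 0.23 for Isl1 and -0.15 to 0.26 for Eya1. Insm1 in males was -0.22 without the 3 libraries. The cause was not tested. By its pseudocount, log2(FPKM + 1) brings the female log2 fold changes of Insm1, Isl1, Eya1 and Hif3a to -2.23, -2.07, -2.16 and -0.85 (limma). With limma on log2(FPKM + 0.1) the median over all genes was 0.11 in females and 0.12 in males, against 0.05 and 0.01, and 59.6% and 60.8% of called genes were higher, against 48.0% and 41.1%. Of genes called between sexes in GOF, 44.9% were higher, and 55.2% with upper-quartile factors. No paired analysis was possible because the labels share no replicate numbers between groups. Depth limits Isl1, Insm1 and Hif3a in GOF libraries, with 9 to 22 reads in the lowest.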
